A study of Mus musculus with 4 samples.

Results

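The genes described here encode the machinery that imports proteins into mitochondria, folds the inner membrane into cristae, and joins or divides the organelle. They were chosen by name: every gene whose name begins with Tomm or Timm followed by a digit, plus Samm50, Immt, Chchd3, Apoo, Apool, Mfn1, Mfn2, Opa1, Dnm1l, Fis1, Mff, Oma1, Yme1l1, Phb and Phb2. Of the 32868 gene names in the files, 40 matched, and 3 of these (Timm8a2, Timm8b and Tomm20l) were left out because they were listed at 0 in all 4 libraries, which left 37 genes. Apart from leaving out rows at 0, the rule used no measured value. The genes and the further lists were, however, chosen with earlier results of these data known, so the counts below are not independent of them.

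RNA came from the tibialis anterior, a fast muscle at the front of the lower leg, of C57BL/6 mice at postnatal day 21. The 2 libraries called Nf1-KO carried the genotype Nf1flox/flox/Myf5+, with 2 floxed copies of Nf1. The 2 libraries called Het carried Nf1flox/+/Myf5+, with 1 floxed copy, so the comparison group also had an altered Nf1 allele and the same Myf5 component. Nf1 encodes neurofibromin, a protein that turns off Ras, and the series title names muscle growth and metabolism after birth as its subject. Myf5 is a gene of muscle precursors, and in crosses of this kind it usually drives Cre, so nerve, vessel and immune cells within the muscle would keep Nf1; the labels do not spell this out. They also do not say whether the 2 libraries of a group came from different animals, so the p-values measure the spread between these libraries, which may be technical.

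Most mitochondrial proteins are made in the cytosol and enter through the TOM complex of the outer membrane. The TIM23 complex then passes proteins with a cleavable presequence through the inner membrane, while small TIM chaperones carry hydrophobic carriers to the TIM22 complex. The MICOS complex holds the necks of the cristae. Mitofusins and Opa1 fuse the outer and inner membranes, the dynamin Dnm1l divides the organelle after being recruited by Mff, Fis1 and other adaptors, and the proteases Oma1 and Yme1l1 cut Opa1. Muscle fibres depend on these processes to maintain a dense network of mitochondria between the myofibrils.

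The values are reads per kilobase of gene scaled to the size of the library (RPKM), which remove gene length and depth. Depth, estimated from the steps between low values, was 36500000 and 58100000 reads in the Het libraries and 47000000 and 51000000 in the Nf1-KO libraries, so 1 RPKM in a 2 kb transcript stood for about 73.0 to 116 reads. Nf1 itself was at 1.09 and 1.01 RPKM in Het and at 0.89 and 0.85 RPKM in Nf1-KO, a log2 fold change of -0.18 (limma adjusted p 0.041). That change is on the scale of log2(RPKM + 1), which understates it for a gene at so low a level. The 6 myofibre markers (Ckm, Acta1, Tnnt3, Mylpf, Atp2a1 and Myh4) were detected at high levels in every library. Their sum was lower in Nf1-KO (43610 and 43230 RPKM) than in Het (54200 and 54280 RPKM), with all 6 past the threshold. Several are forms of fast fibres and no slow-fibre gene was on the list, so the sum does not stand for all myofibre RNA. Several markers of other cells moved the other way. The summed level of 5 macrophage and leukocyte markers was 8.59 and 8.86 RPKM in Het and 27.6 and 27.5 RPKM in Nf1-KO (3 of 3 tested were higher, and Adgre1 was listed at 0), that of 5 Schwann cell markers 9.88 and 9.94 against 24.4 and 22.7 RPKM (5 of 5 higher), and that of 3 fibroblast markers 66.5 and 64.6 against 99.4 and 99.5 RPKM (3 of 3 higher). Adipocyte markers summed to 7.6 and 8.67 against 18.7 and 19.2 RPKM (1 of 2 tested higher), and brown adipocyte markers to 0.75 and 1.02 against 2.01 and 2.52 RPKM (1 of 1 tested higher, with Ucp1 listed at 0). Smooth muscle and pericyte markers summed to 69.0 and 70.5 against 92.5 and 93.3 RPKM (2 of 3 higher) and endothelial markers to 69.7 and 70.0 against 75.7 and 74.8 RPKM (2 higher and 1 lower of 5). Of the satellite cell and blood markers tested, none passed with limma. Whether these cells contributed to the changes below was not tested, and in whole muscle fewer cells of a type and less RNA per cell cannot be told apart.

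Among the genes of this machinery, 16 were modestly higher in Nf1-KO muscle, with the mitofusins, prohibitins and Chchd3 among them. Relative to the typical gene, 5 were lower: Timm22, Timm17a, Timm23, Mff and Dnm1l. Of these only Timm22 kept its call without scaling between libraries. The other 13 did not pass. Of the 37 genes, 34 passed the filter of at least 0.5 RPKM in at least 2 libraries and were tested with limma on log2(RPKM + 1), after the libraries were scaled to each other by a trimmed mean of ratios. At an adjusted p under 0.05, 16 were higher and 5 were lower in Nf1-KO. Together these 21 are 61.8% of the 34, where 50.3% of all 10690 tested genes passed. By direction, 47.1% of the 34 were higher against 24.9% of all genes, and 14.7% were lower against 25.4%. The changes were small in size: log2 fold changes ran from -0.22 (Timm22) to 0.47 (Timm21), with a median of 0.12 where the median of all tested genes was 0.00. Fold changes are on the scale of log2(RPKM + 1), which understates the change of the lowest genes.

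**Figure D1:**
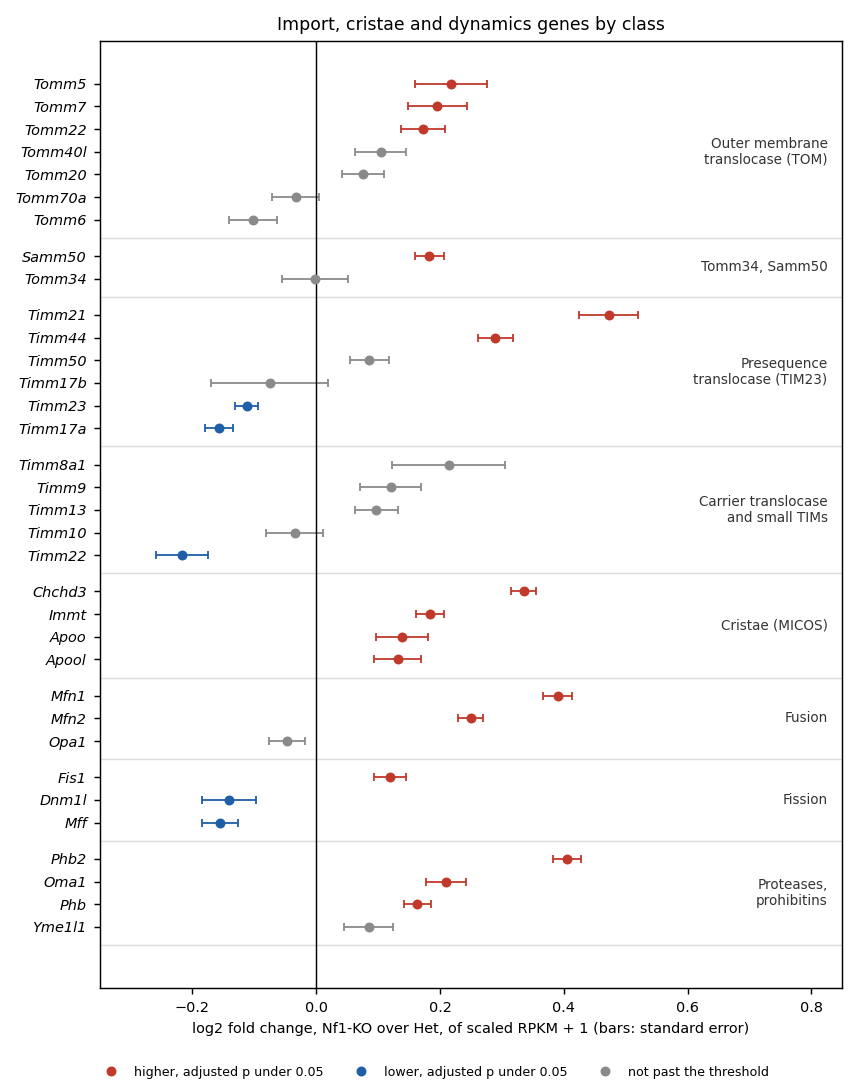
Log2 fold change of Nf1-KO over Het on the horizontal axis (RPKM scaled between libraries, pseudocount 1) for the 34 tested genes, grouped by role, with bars for the standard error; red and blue mark genes past the threshold. All 4 genes shown for cristae are red, while the presequence translocase holds both the largest rise (Timm21, 0.47) and 2 of the 5 falls.

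How far the falls go depends on the scaling. With the RPKM left as deposited, the median log2 fold change of all tested genes moved to 0.07 and that of these genes to 0.20. The same test then called 23 of the 34 higher and only Timm22 lower, where 35.2% of all tested genes were called higher and 17.6% lower. Timm23, Timm17a, Mff and Dnm1l kept their direction but lost their calls, at -0.02, -0.06, -0.06 and -0.06. For these 4 the deposited Nf1-KO values were still both below the Het values, but the differences did not pass the test on that scale. In the deposited values the Nf1-KO pair lay wholly outside the Het pair for 31 of the 34 genes (26 above, 5 below), which is 91.2%, where 77.3% of all tested genes did so.

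**Figure D2:**
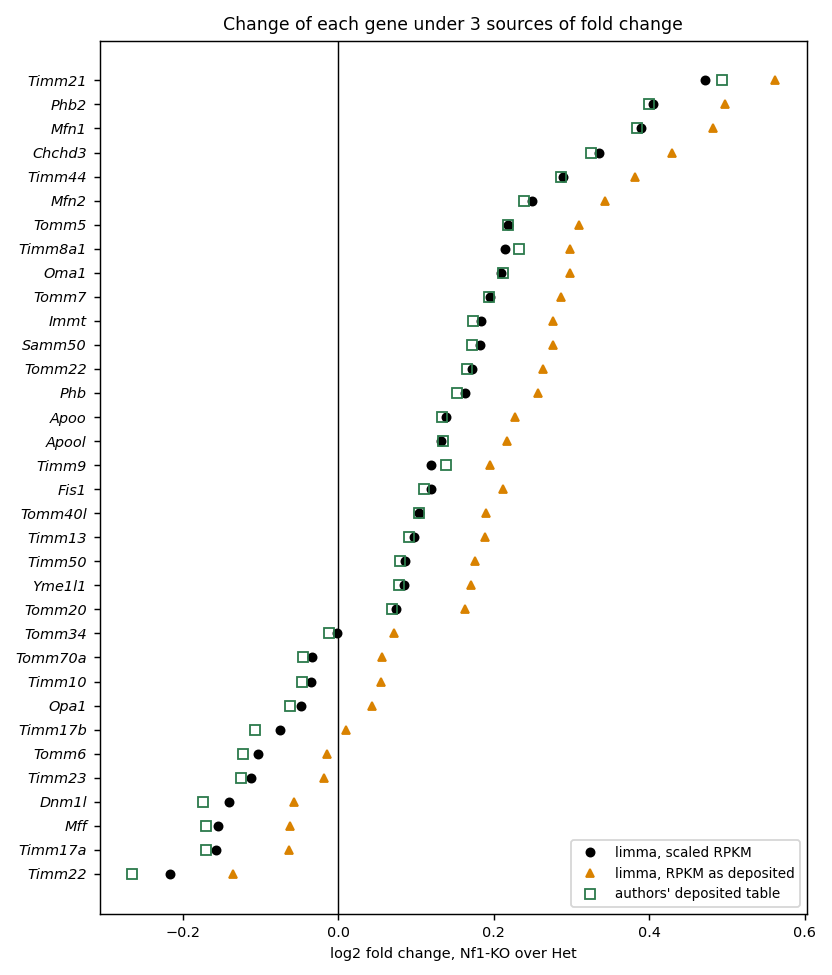
Log2 fold change of each of the 34 genes (horizontal axis) from the scaled RPKM (circles), the RPKM as deposited (triangles) and the authors' deposited table (squares). The triangles sit to the right of the circles throughout, so that Timm23 moves from -0.11 to -0.02 while Timm22 moves from -0.22 to -0.14.

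In the outer membrane translocase, 3 of 7 tested genes rose past the threshold (42.9%, against 24.9% of all tested genes). None of the 7 fell past it, where 25.4% of all tested genes did, and with so few genes these counts are a description. Those that rose were Tomm5 and Tomm7, small subunits that shape the assembly of the complex, and Tomm22, the receptor at its centre. Tomm5 was at 28.0 and 26.3 RPKM in Het and at 31.9 and 36.0 RPKM in Nf1-KO, the largest rise of the complex, with a log2 fold change of 0.22 (SE 0.058, limma adjusted p 0.022). Tomm22 was at 24.9 and 25.2 RPKM against 31.2 and 29.4 RPKM, a change of 0.17 (limma adjusted p 0.0079). Tomm7 was at 23.3 and 21.1 RPKM against 26.9 and 27.7 RPKM, a change of 0.20 (limma adjusted p 0.016). For each of the 3 the groups did not overlap, but the calls rested on few libraries. Tomm5 lost its call without Het replicate 1 (limma adjusted p 0.064), Het replicate 2 (0.158) or Nf1-KO replicate 2 (0.0505), Tomm7 without Het replicate 2 (0.0611) or Nf1-KO replicate 2 (0.0501), and Tomm22 without Het replicate 1 (0.0547).

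Besides Tomm22, the receptors for incoming precursors did not pass the threshold. Tomm20, which binds presequences, was at 12.7 and 12.4 RPKM in Het and 14.3 and 14.1 RPKM in Nf1-KO (log2 fold change 0.07, limma adjusted p 0.111), and Tomm70a, which receives carrier proteins with their chaperones, at 19.3 and 18.2 against 19.4 and 19.7 RPKM (-0.03, 0.492). The small subunit Tomm6 was at -0.10 (limma adjusted p 0.070). Tomm40l, a second form of the pore protein, was at 9.52 and 9.05 against 10.9 and 10.6 RPKM (0.10, limma adjusted p 0.078). The row for the pore gene Tomm40 held 0.06 and 0.12 RPKM in Het and 0.21 and 0.12 RPKM in Nf1-KO, a row under its older name Tom40 was listed at 0, and neither was tested. Since every cell needs Tomm40 and 44.7% of the rows in these files are at 0, such values are given only as listed. Samm50, which inserts barrel-shaped proteins such as Tomm40 into the outer membrane, was more abundant than any tested TOM subunit. It was at 107.9 and 106.4 RPKM in Het and 131.7 and 128.3 RPKM in Nf1-KO, a log2 fold change of 0.18 (SE 0.023, limma adjusted p 0.0010). Tomm34, a soluble co-chaperone of import, was at 3.69 and 3.46 against 3.92 and 3.70 RPKM, with overlapping groups after scaling and a log2 fold change of 0.00.

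The genes of the presequence translocase did not move together. The pore genes Timm23 and Timm17a were the most abundant of the TIM genes and were called lower, whereas Timm21, which links the complex to TOM and to the respiratory chain, and Timm44, which anchors the import motor, rose. Timm23 was at 164.6 and 163.4 RPKM in Het and 160.9 and 163.0 RPKM in Nf1-KO, a log2 fold change of -0.11 (SE 0.019, limma adjusted p 0.0034). Timm17a was at 101.8 and 100.7 against 95.6 and 98.0 RPKM, a change of -0.16 (limma adjusted p 0.0016). In the deposited RPKM the 2 groups are nearly the same for Timm23. Both falls lost their calls without scaling (limma adjusted p 0.442 for Timm23 and 0.0543 for Timm17a). The call of Timm23 was also lost in the scaled fit without a variance trend (limma adjusted p 0.051). Timm21 was at 13.5 and 12.2 RPKM in Het and 19.4 and 19.5 RPKM in Nf1-KO. Its log2 fold change of 0.47 (SE 0.048, limma adjusted p 3.7e-04) was the largest among the 34 genes and lay at the 94.3rd percentile of all tested genes. Timm44 was at 31.2 and 30.1 against 40.3 and 40.1 RPKM, a log2 fold change of 0.29 (SE 0.028, limma adjusted p 3.3e-04). Both libraries of Nf1-KO were above both of Het for these 2 genes, and the calls held in every alternative fit. Timm50, the receptor of the complex, was at 18.4 and 17.9 against 20.4 and 20.9 RPKM (0.09, limma adjusted p 0.063). Timm17b, the other form of Timm17a, overlapped between groups at 8.37 and 10.2 against 9.91 and 8.79 RPKM (-0.08, limma adjusted p 0.542).

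On the carrier route no gene rose past the threshold and Timm22, the pore of the carrier translocase, was called lower. Timm22 was at 6.45 and 6.72 RPKM in Het and 5.85 and 5.96 RPKM in Nf1-KO, a log2 fold change of -0.22 (SE 0.043, limma adjusted p 0.0066). It was the only one of the 34 genes called lower in every alternative fit, the unscaled one included. The small chaperones did not pass. Timm9 was at 3.55 RPKM in each Het library and at 4.32 and 4.10 RPKM in Nf1-KO (0.12, limma adjusted p 0.084), and its partner Timm10 at 16.4 and 14.9 against 16.2 and 16.4 RPKM (-0.03, limma adjusted p 0.568). Timm13 was at 23.5 and 23.1 against 25.9 and 27.5 RPKM (0.10, limma adjusted p 0.061; 0.0232 without Nf1-KO replicate 1). Timm8a1, its partner, had the widest replicate spread of the 34 genes within Nf1-KO, at 8.14 and 6.87 RPKM in Het and 10.2 and 8.74 RPKM in Nf1-KO (0.21, limma adjusted p 0.095). It was called higher without Nf1-KO replicate 2 (0.0312), with unscaled values (0.0363) and with the replicate number as a block (0.0064). Timm10b stayed at or under 0.38 RPKM and was not tested, nor was Tomm6os, a non-coding transcript on the strand opposite Tomm6, at 0.02 to 0.04 RPKM. Rows under older names of Timm10b did not pass the filter either. Tim9b was at 0.23 and 0.22 RPKM in Het and 0.72 and 0.49 RPKM in Nf1-KO, and Fxc1 at or under 0.02 RPKM. As for Tomm40, these values are given only as listed.

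The 4 MICOS genes chosen by name all rose past the threshold, where 24.9% of all tested genes did. Chchd3, which encodes Mic19 and joins the complex to Samm50 in the outer membrane, changed most: it was at 134.2 and 131.9 RPKM in Het and 178.3 and 180.7 RPKM in Nf1-KO, a log2 fold change of 0.34 (SE 0.020, limma adjusted p 4.0e-05). Immt, the core subunit mitofilin, was at 64.3 and 63.8 against 78.3 and 77.3 RPKM, a change of 0.18 (SE 0.022, limma adjusted p 8.5e-04). These 2 genes were called in every alternative fit. The 2 apolipoprotein-O relatives changed less and less firmly. Apoo was at 13.6 and 14.4 against 16.1 and 17.0 RPKM (0.14, limma adjusted p 0.033) and Apool at 8.37 and 8.07 against 9.76 and 9.67 RPKM (0.13, limma adjusted p 0.028). Apoo kept its call only without Nf1-KO replicate 1 (0.0281), losing it without Het replicate 1 (0.185), Het replicate 2 (0.053) or Nf1-KO replicate 2 (0.124), and Apool lost it whichever library was left out (0.0582 to 0.122). Of the further MICOS genes, Minos1, which encodes Mic10, was higher at 26.6 and 24.9 against 33.0 and 31.6 RPKM (0.22, limma adjusted p 0.0044). Chchd6, which encodes Mic25, was lower, at a low level of 0.73 RPKM in each Het library and 0.60 and 0.56 RPKM in Nf1-KO (-0.17, limma adjusted p 0.046).

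Among the fusion genes the mitofusins of the outer membrane rose and Opa1 of the inner membrane did not. Mfn1 was at 46.5 and 46.0 RPKM in Het and 65.2 and 64.7 RPKM in Nf1-KO, a log2 fold change of 0.39 (SE 0.023, limma adjusted p 3.8e-05). Mfn2, the more abundant form here, was at 140.9 and 140.1 against 180.1 and 177.1 RPKM, a change of 0.25 (SE 0.020, limma adjusted p 1.4e-04). In both genes the gap between groups was many times the gap between replicates. Opa1 was at 24.3 and 24.5 RPKM in Het and 25.4 and 24.9 RPKM in Nf1-KO, so its groups did not overlap as deposited, but the difference was small, with a log2 fold change of -0.05 after scaling (limma adjusted p 0.214) and 0.04 without it (0.228). A gene-level value does not separate the Opa1 isoforms, nor does RNA show how its protein is cut.

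The fission genes went in opposite directions. Dnm1l, the dynamin that constricts the organelle, was at 7.67 and 8.15 RPKM in Het and 7.57 and 7.55 RPKM in Nf1-KO, a log2 fold change of -0.14 (SE 0.043, limma adjusted p 0.036). Mff, its main receptor on the outer membrane, was at 43.9 and 44.4 against 41.3 and 43.2 RPKM, a change of -0.15 (SE 0.029, limma adjusted p 0.0055). Fis1, a tail-anchored adaptor, rose from 46.5 and 45.6 to 52.8 and 54.2 RPKM, a change of 0.12 (SE 0.026, limma adjusted p 0.0096). In the deposited RPKM the Het and Nf1-KO values of Dnm1l and Mff lie close together, and their lower calls ended without scaling (limma adjusted p 0.3 and 0.125). With 1 library left out, Dnm1l was still called without Het replicate 1 (0.0391) and not without Het replicate 2 (0.145), Nf1-KO replicate 1 (0.117) or Nf1-KO replicate 2 (0.137), and Fis1 lost its call without Het replicate 2 (0.0677).

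**Figure D3:**
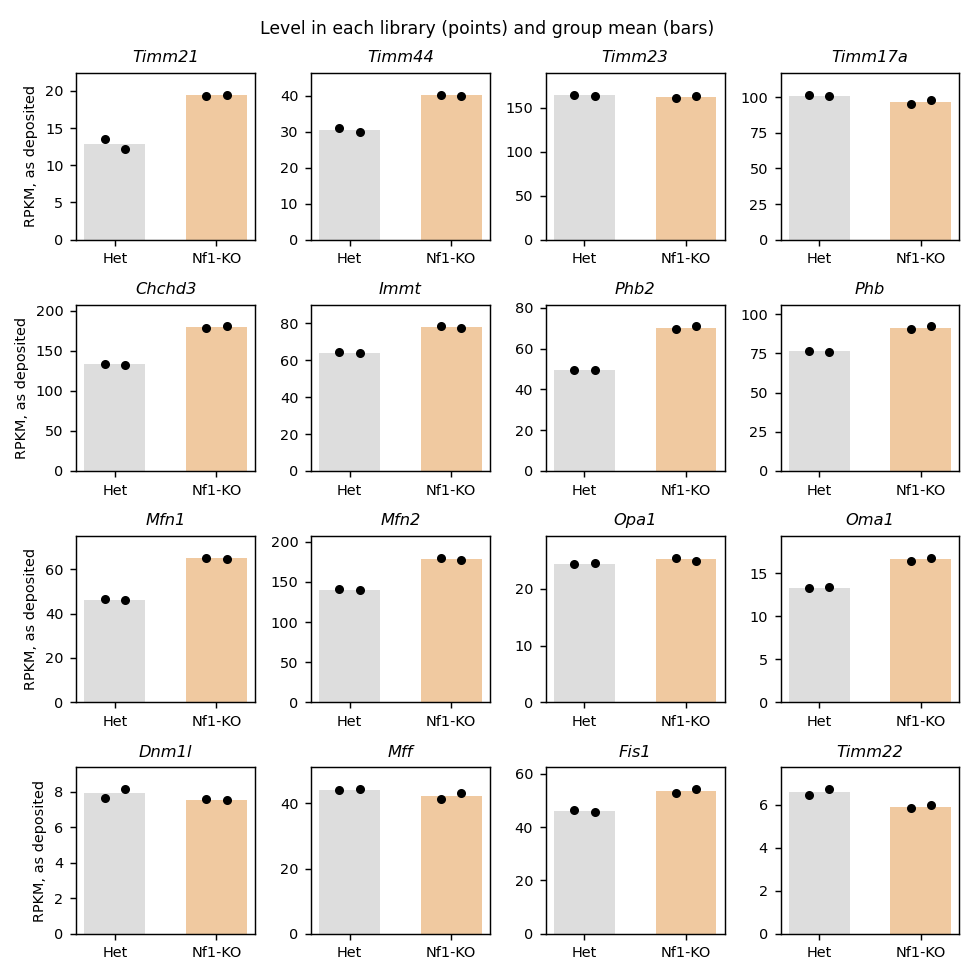
RPKM as deposited in each library (points) and the group mean (bars, from 0) for 16 of the genes. The points of Mfn1, Phb2, Chchd3 and Timm21 are clearly apart between groups, and those of Timm23, Dnm1l and Mff nearly level.

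Both prohibitins, which form ring-shaped scaffolds in the inner membrane, rose, Phb2 more than Phb. Phb2 was at 49.5 RPKM in each Het library and at 69.7 and 70.9 RPKM in Nf1-KO, a log2 fold change of 0.40 (SE 0.023, limma adjusted p 3.1e-05), the lowest adjusted p of the 34 genes. Phb was at 76.9 and 76.0 against 90.7 and 92.3 RPKM, a change of 0.16 (SE 0.022, limma adjusted p 0.0013). Oma1, the stress-activated protease that cuts Opa1, rose from 13.3 and 13.4 to 16.4 and 16.8 RPKM, a change of 0.21 (SE 0.032, limma adjusted p 0.0023). Yme1l1, the protease that cuts Opa1 at another site, was at 9.42 and 9.87 against 11.1 and 10.8 RPKM and did not pass (0.08, limma adjusted p 0.127). The calls of Phb2, Phb and Oma1 held in every alternative fit.

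Ratios of 2 genes within a library do not depend on the scaling between libraries. Of 11 pairs chosen for shared function, 9 had both genes tested, and in 7 of these the groups did not overlap, a share near the 77.3% of single genes, so the count itself shows nothing particular to the pairs. Mff stood to Fis1 at 0.945 and 0.973 in Het and at 0.783 and 0.797 in Nf1-KO, the largest shift (-0.28 on the log2 scale). Phb stood to Phb2 at 1.55 and 1.54 against 1.30 in each Nf1-KO library, a shift of -0.25. The shift was 0.15 for Mfn1 to Mfn2, at 0.330 and 0.328 against 0.362 and 0.365, and -0.15 for Immt to Chchd3, at 0.479 and 0.483 against 0.439 and 0.428. Opa1 to Dnm1l, Oma1 to Yme1l1 and Timm9 to Timm10 shifted by 0.11, 0.13 and 0.19. The ratios of Timm17a to Timm17b and of Apoo to Apool overlapped. With 2 libraries in each group an exact permutation test (two-sided) cannot go below 0.333, the value of each of the 7, so these ratios are a description.

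**Figure D4:**
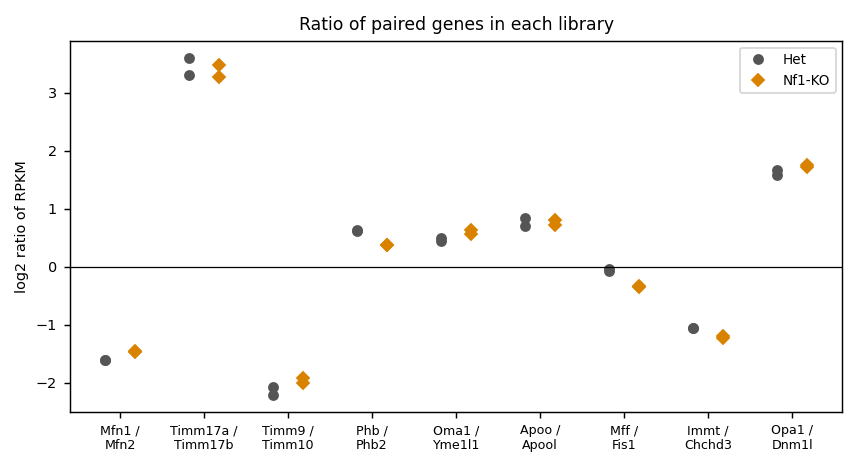
Log2 ratio of the RPKM of paired genes in each library (circles Het, diamonds Nf1-KO). The groups are separate for Phb to Phb2 and Mff to Fis1, and mixed for Timm17a to Timm17b and Apoo to Apool.

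Other genes of import, cristae, dynamics and quality control came from a list of 63 names, of which 58 were tested. Of these, 26 were higher past the threshold (44.8%, against 24.9% of all tested genes) and 9 lower (15.5%, against 25.4%), and the list had a median of 0.09 on the log2 scale. The import and sorting genes were mostly higher, 15 of 25 against 1 lower, and of the inner membrane and matrix proteases 7 of 8 were higher and 1 lower. The other groups were not: 1 higher and 1 lower of 4 cristae genes, 1 and 1 of 3 outer membrane channels, and none higher and 1 lower of 6 cardiolipin genes with limma. These were Vdac1 (0.13) and Vdac3 (-0.07) among the channels and Ptpmt1 (-0.25), a phosphatase of cardiolipin synthesis. The order that follows is on the scale of log2(RPKM + 1), which understates the changes of low genes such as Immp2l and Gdap1. Clpx, the unfolding subunit of a matrix protease, had the largest rise, from 19.0 and 18.9 to 31.0 and 30.5 RPKM (0.58, limma adjusted p 1.6e-05). It was followed by Immp2l, an inner membrane peptidase, from 2.77 and 2.96 to 4.75 and 4.56 RPKM (0.48, limma adjusted p 5.4e-04), and by Mtch1, an outer membrane insertase, from 15.3 in each Het library to 22.5 and 21.5 RPKM (0.40, limma adjusted p 1.9e-04). The largest fall was in Gdap1, an outer membrane protein that promotes fission and is known from inherited neuropathy, at 2.81 and 2.86 RPKM in Het and 0.76 and 0.51 RPKM in Nf1-KO (-1.29, limma adjusted p 5.0e-05). Schwann cell markers went the other way in the same libraries, as given above, and any link to Gdap1 was not tested. Chchd4, the oxidoreductase that folds small TIM proteins in the intermembrane space, fell from 12.3 in each Het library to 10.3 and 10.1 RPKM (-0.33, limma adjusted p 4.2e-04), and Afg3l1, a protease subunit, from 13.01 and 12.81 to 11.9 and 10.9 RPKM (-0.26, limma adjusted p 0.0047).

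Partners of the TIM23 complex, named after their values were seen, were in part higher. The mitochondrial Hsp70 gene Hspa9 was at 174.9 and 175.0 RPKM in Het and 232.1 RPKM in each Nf1-KO library (0.31, limma adjusted p 3.3e-05), and the subunits of the processing peptidase that removes presequences, Pmpca and Pmpcb, changed by 0.14 and 0.28 (limma adjusted p 0.0078 and 3.3e-04). The nucleotide exchange factors of the motor, Grpel1 and Grpel2, changed by 0.19 and 0.27 (limma adjusted p 0.015 and 0.012). The motor subunits Pam16, Dnajc19 and Dnajc15 did not pass, at 0.06, 0.09 and 0.08 (limma adjusted p 0.374, 0.156 and 0.057). Among dynamics genes 2 of 12 were higher (16.7%, against 24.9% of all tested genes) and 4 lower (33.3%, against 25.4%). The higher ones were Mief2, an adaptor for Dnm1l, at 34.0 and 33.9 against 41.3 and 42.0 RPKM (0.20, limma adjusted p 0.0010), and Pgam5, a phosphatase, at 0.13 (0.045). Besides Gdap1 the lower ones were Rhot1, Rhot2 and Trak1, which attach mitochondria to microtubule motors, at -0.19, -0.11 and -0.10 (limma adjusted p 0.0081, 0.010 and 0.017), although the deposited values of Rhot2 and Trak1 overlapped between groups. Without Nf1-KO replicate 2, the count of lower genes on the list of 63 fell from 9 to 4, and with unscaled values it was also 4.

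Set beside other mitochondrial genes, the 34 moved less evenly than the respiratory chain. Of 81 tested nuclear genes of the respiratory chain and cytochrome c, 75 were higher (92.6%, against 24.9% of all tested genes) and 2 lower (2.5%, against 25.4%), and the median was 0.29 on the log2 scale. Of 73 mitochondrial ribosomal protein genes, 30 were higher (41.1%) and 10 lower (13.7%), with a median of 0.06. No test of the difference between lists was made. All lists share the same 4 libraries.

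**Figure D5:**
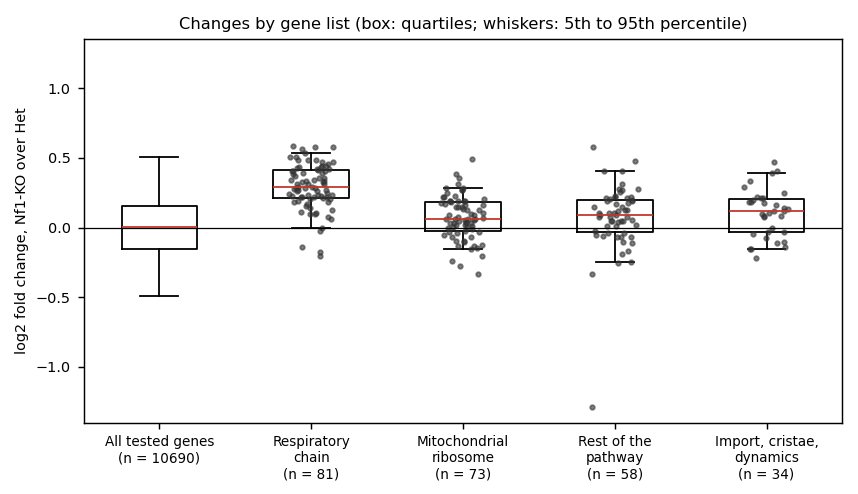
Log2 fold change by gene list, with boxes for the quartiles, red lines for the median, whiskers from the 5th to the 95th percentile and a point per gene (no points for all tested genes). The import, cristae and dynamics genes are centred at 0.12, between the mitochondrial ribosome (0.06) and the respiratory chain (0.29).

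In the authors' deposited table, which covers 36 of the 37 genes, 10 were higher and 5 lower at an adjusted p under 0.05, where 31.6% of all its 13985 genes passed. Those 15 were all called here with the same sign. The 6 genes called here only were Tomm5, Tomm7, Tomm22, Apoo, Apool and Fis1, whose calls also depended on single libraries in the RPKM fit. The authors' deposited table gave them log2 fold changes of 0.22, 0.19, 0.17, 0.13, 0.14 and 0.11. It listed mean normalised counts of 388.6 (Timm9) to 39890.9 (Mfn2) for the tested genes, and 23.8 for Tomm40 and 12.7 for Timm10b.

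Promoter sequence was examined because it played no part in the choice of genes and because genes of this machinery are known targets of nuclear respiratory factors. RefSeq promoters (GRCm38.p6, from 250 bases before to 50 after each start) were given for 37 of the 40 names. The ETS core CCGGAAGT, read on both strands, was in 8 of the 37 (21.6%), compared with 4.31% of all 27025 genes with a promoter. It was in 9.36% of the 7850 tested genes with a promoter, whereas the 37 also hold genes that were not tested. The NRF1 core GCGCATGCG, which overlaps its own reverse complement when the next base is C, was in 2 (5.4%, against 1.95% and 4.41%). The core of estrogen-related receptors, CAAGGTCA, was in 1 (2.7%; 1.56% and 1.18%), and the YY1 core AAGATGGC in 1 (2.7%; 2.75% and 5.61%). The ETS core was in Mfn1, Phb2 and Fis1, which were higher, in Timm23, which was called lower, in Tomm70a and Timm10, which did not pass, and in Timm10b and Timm8a2, which were not tested. The match therefore did not go with 1 direction of change. A match in these letters is a description and shows no binding.

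The 100 bases before the start site are shown for the 4 genes with an ETS core there that changed in either direction, and for Opa1, the fusion gene that did not pass, which has the NRF1 core. Capitals mark the core on either strand. The stretches lie at chr3:32529382-32529481 for Mfn1, chr6:124712189-124712288 for Phb2, chr5:136953175-136953274 for Fis1 and chr16:29579234-29579333 for Opa1, all on the plus strand, and at chr14:32201892-32201991 on the minus strand for Timm23. They are written 5′ to 3′ along the gene.
Mfn1: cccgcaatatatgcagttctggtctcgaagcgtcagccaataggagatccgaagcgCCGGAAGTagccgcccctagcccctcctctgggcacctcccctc
Phb2: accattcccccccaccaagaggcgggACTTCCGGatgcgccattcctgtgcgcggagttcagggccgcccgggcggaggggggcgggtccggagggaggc
Fis1: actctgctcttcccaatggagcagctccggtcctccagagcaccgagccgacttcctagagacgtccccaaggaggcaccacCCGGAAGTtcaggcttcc
Timm23: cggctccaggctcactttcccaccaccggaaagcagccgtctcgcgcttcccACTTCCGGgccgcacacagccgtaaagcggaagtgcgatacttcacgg
Opa1: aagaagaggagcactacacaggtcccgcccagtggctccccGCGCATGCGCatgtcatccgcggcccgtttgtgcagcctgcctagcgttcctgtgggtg
In Mfn1 the core begins 44 bases before the RefSeq start, in Timm23 48 and in Phb2 74, while in Fis1 it begins 18 bases before it. The GC content of the 5 stretches was 62.0% to 74.0%.

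In GENCODE M21 (GRCm38) exons of 15 of the 37 genes overlap an exon of another annotated gene, among them Mff, Dnm1l, Immt, Phb2, Samm50, Timm23, Timm13, Timm9, Tomm40l and Tomm70a. Whether counting used strand is not given in the sources used here, so their values may hold reads of the overlapping gene. Timm8a1 has a close relative in Timm8a2, and how reads shared by similar genes were counted is not given either.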

How the data were processed

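RNA from 4 libraries (2 Het, 2 Nf1-KO) was compared. Per the submitters' processing notes, STAR 2.4.2a and DESeq2 were used with the mouse build mm9; annotation, counting program and strand setting are not given in the sources used here. The authors deposited 1 RPKM value per gene and library, rounded to 2 decimals; the unit was read from the values, which sum to 532315 to 547144 per library. The authors' deposited comparison table holds, per the file headers, a signal (mean normalised count), a log2 fold change, a test score, and p-values.

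Of 34682 rows, 33 named by a number were left out, and of several copies of 1 name, the most abundant was used. The test was that of limma 3.58.1 (R 4.3.3), applied to genes that reached 0.5 RPKM in 2 or more libraries, with a pseudocount of 1, log2 values and a trended variance prior, two-sided, adjusted by Benjamini-Hochberg over 10690 genes. RPKM were divided by factors of 0.968, 0.967, 1.03 and 1.04 (Het 1 and 2, Nf1-KO 1 and 2) from a trimmed mean of log ratios. The procedure was tested on simulated data in which few genes changed. No shift between libraries was simulated, so that run does not bear on the scaling. Depth was estimated from steps of low values in genes under 400 bases, so no counting intervals are given. Positions are of GRCm38, not mm9.

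All members are described by role, with values in every library for the largest changes and for all fusion, fission and protease genes; for the further list, the 3 largest changes in each direction. Members and lists were chosen with earlier results of these data known. The labels give no batch.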

Additional observations from a re-analysis of the deposited data

How the results depend on the processing

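Across 16 alternatives, 481 of 544 values of the 34 tested genes stayed on the same side of the threshold with the same sign, 38 lost and 13 gained a call, and 12 changed sign. Every change of sign was in a gene that had not passed: unscaled values gave 0.054 for Timm10, 0.01 for Timm17b, 0.056 for Tomm70a, 0.072 for Tomm34 and 0.044 for Opa1, the filter of 1 RPKM in every library gave 0.007 for Tomm34, and leaving out single libraries gave -0.099 to 0.023 for Timm10, -0.212 to 0.055 for Timm17b, -0.077 to 0.003 for Tomm70a and -0.04 to 0.04 for Tomm34. Of the 21 called genes, 11 (10 higher and Timm22) were called in each of 15 alternative fits. With no filter, Tomm5, Tomm7, Tomm22, Apoo, Apool and Dnm1l lost their calls (limma adjusted p 0.142, 0.101, 0.0505, 0.145, 0.0613 and 0.0677). Without a variance trend, Tomm5, Apoo, Fis1 and Timm23 lost theirs (limma adjusted p 0.0528, 0.0656, 0.0512 and 0.051).

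The count of higher genes was 16 in the main fit and 11 with no filter. It was 12 at a threshold of 0.01, 13 without a variance trend and 23 with unscaled values. Unscaled values moved the count of lower genes from 5 to 1 and the median from 0.12 to 0.20. For the further list these were 4 and 0.18, and for the respiratory chain 0 and 0.38. For the mitochondrial ribosome they were 2 and 0.15, with 48 higher. The respiratory chain had a median of 0.27 with no filter and 0.26 when scaled by the sum without the 20 most abundant genes, and 1 lower gene with no filter or a threshold of 0.01. The ribosome had 4 lower genes with no filter, 5 without a variance trend and 3 at 0.01, and the further list 5 at 0.01. With each library left out, lower genes numbered 4 to 7 on the further list, 1 to 2 in the respiratory chain and 4 to 6 in the ribosome; a lone library was assumed to vary like the other group. Other causes were not tested.

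The labels do not say whether libraries with the same replicate number form a pair. The deviations of such libraries from their group means correlated at -0.018 over genes. This cannot exclude a pairing that affects few genes. In the fit with a replicate block, 17 genes were higher and 5 lower, the added one being Timm8a1. The 2 libraries per group and rounding to 2 decimals limit precision for genes under 1 RPKM.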
